A study of Homo sapiens with 6 samples.

Results

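The genes examined were those that encode integrin subunits and laminin chains, measured in ONS-76 cells with and without knockdown of KDM1A, a histone demethylase also called LSD1. Members were defined by gene name, in a set chosen with earlier results of these data known. Every probe set counted that the platform table assigned to a single symbol of the named kind. That symbol had to be an integrin alpha or beta subunit or a laminin alpha, beta or gamma chain. The rule names 38 genes, of which 35 had such a probe set, among 19775 genes in all, and they were covered by 95 of 54613 probe sets. The other 3 were not analysed here. Where a gene had several probe sets, the one with the highest mean over the 6 arrays stood for it, and the others are given beside it where they differ.

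All arrays come from 1 established line, ONS-76, derived from a human medulloblastoma. The siKDM1A group held 3 Affymetrix U133 Plus 2.0 arrays of cells transfected with 1 siRNA against KDM1A, and the control group held 3 arrays of mock-transfected cells that received vehicle and no siRNA. The 3 arrays of a group are separate transfections. Loss of KDM1A and delivery of an siRNA therefore cannot be told apart in this design. The labels name the siRNA target as KDM5A and as LSD1, and give 48 h to harvest where the study's supplement gives 72 h. KDM1A itself had log2 values of 6.25, 6.34 and 6.31 on the siKDM1A arrays, against 9.50, 9.57 and 9.49 on the control arrays, and fell by 3.22 on the log2 scale (adjusted p = 7.1e-07). KDM5A had 5 probe sets and none passed the test, with a log2 fold change of -0.27 on the brightest (adjusted p = 0.14) and of -0.39 on the one nearest the threshold (adjusted p = 0.056). On both of these all siKDM1A arrays lay below all control arrays. The 6 arrays had medians of 5.09 to 5.16 and correlated at 0.991 to 0.998. Of 11 measured markers of medulloblastoma and the granule neuron lineage, 7 lay above the array median on every array, while OTX2, between 2.71 and 3.27, was under the lower quartile throughout and ATOH1 ranged from 4.77 to 5.15. SOX2, ZIC2 and ZIC1 fell by 0.43, 0.40 and 0.39 on the log2 scale, but at most 1 of the 3 passed when any array was left out, and none without siKDM1A replicate b or any 1 of the control arrays. The summed log2 level of the 11 markers was 71.3 to 71.7 on the siKDM1A arrays and 71.5 to 72.7 on the control arrays, and its part in the results below was not tested. RNA from whole cultures was measured, in which fewer cells of a type and less RNA per cell cannot be told apart, and 3 arrays a group limit the precision of every value.

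Integrins are cell surface receptors made of 1 alpha and 1 beta subunit, and the alpha subunit largely sets which ligand is bound. ITGB1 pairs with a wide range of alpha subunits, whereas other beta subunits have few partners. Laminins are cross-shaped trimers of an alpha, a beta and a gamma chain that assemble in the endoplasmic reticulum, are secreted and polymerise into the basement membrane, where integrins with the ITGA3, ITGA6 or ITGA7 subunit bind them. In the developing cerebellum, laminin of the pial basement membrane and integrins with the ITGB1 subunit are known to take part in the organisation of granule neuron precursors, the cells from which a subset of medulloblastomas arises.

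The promoter windows of 4 of the 6 members that rose are shown because they differ in the motifs they hold. The RefSeq table (GRCh38.p14) held a window of 250 bases before to 50 bases after the transcription start for 24 of the 35 members, 31 windows in all, and for all 6 members that rose, 8 windows. Capitals mark matches to the AP-1 motif TGANTCA and to the GC box GGGCGG, on either strand, and each sequence reads 5′ to 3′ on the strand of its gene. ITGA1 lies at chr5:52787666-52787965 on the plus strand, ITGA5 at chr12:54419217-54419516 on the minus strand, LAMB3 at chr1:209651325-209651624 on the minus strand, 1 of 3 LAMB3 windows, and LAMC1 at chr1:183023170-183023469 on the plus strand.
ITGA1: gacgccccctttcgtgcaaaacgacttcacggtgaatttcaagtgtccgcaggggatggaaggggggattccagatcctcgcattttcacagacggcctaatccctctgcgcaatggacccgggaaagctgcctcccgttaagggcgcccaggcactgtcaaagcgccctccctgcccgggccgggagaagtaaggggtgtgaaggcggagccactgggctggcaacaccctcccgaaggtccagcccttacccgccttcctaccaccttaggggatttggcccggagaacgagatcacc
ITGA5: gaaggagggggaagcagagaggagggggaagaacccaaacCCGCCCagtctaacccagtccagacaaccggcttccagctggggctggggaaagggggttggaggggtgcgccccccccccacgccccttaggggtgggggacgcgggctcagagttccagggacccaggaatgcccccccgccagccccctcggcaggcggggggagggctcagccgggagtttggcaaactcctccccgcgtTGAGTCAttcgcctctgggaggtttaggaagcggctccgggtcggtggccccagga
LAMB3: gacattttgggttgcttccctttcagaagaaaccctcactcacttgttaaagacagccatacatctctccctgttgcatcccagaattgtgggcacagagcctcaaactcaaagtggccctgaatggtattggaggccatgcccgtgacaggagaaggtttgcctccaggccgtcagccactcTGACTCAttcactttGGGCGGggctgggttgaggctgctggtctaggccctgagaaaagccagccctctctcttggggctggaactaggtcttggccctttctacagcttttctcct
LAMC1: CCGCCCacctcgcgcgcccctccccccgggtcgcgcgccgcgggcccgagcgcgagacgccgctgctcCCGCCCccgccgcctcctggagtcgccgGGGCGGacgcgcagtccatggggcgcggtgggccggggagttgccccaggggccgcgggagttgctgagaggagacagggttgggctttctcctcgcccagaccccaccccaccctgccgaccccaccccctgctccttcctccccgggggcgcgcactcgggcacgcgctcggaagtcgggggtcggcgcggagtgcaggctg

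An AP-1 match was present in 2 of the 31 member windows, those of ITGA5 and LAMB3 shown above, and in 7.71% of 35116 windows in the table. It began at base -6 in ITGA5 and at base -67 in LAMB3, counted from the transcription start. A GC box was found in 18 of the 31 member windows, in windows of 4 of the 6 members that rose (ITGA5, ITGB8, LAMB3 and LAMC1), and in 45% of all windows. The letters GGAATG, a core of TEAD sites, were found in 4 of the 31 member windows, among them those of ITGA5 and ITGA10, and in 14% of all windows. TATAAA was found in 2 of the 31 member windows, in none of the 8 windows of members that rose, and in 11.5% of all. These are matches of letters and were not tested as binding sites.

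After KDM1A knockdown 6 of the 35 genes rose and none fell. Those that rose were the integrin alpha genes ITGA1, ITGA5 and ITGA10, the integrin beta gene ITGB8 and the laminin chain genes LAMC1 and LAMB3, with fold changes between 1.32 and 2.22. The 6 genes are 17.1% of the members, beside 3.45% of all genes that were called higher and 5.46% that were called lower by limma at an adjusted p under 0.05; every adjusted p below is from that fit across all probe sets. Expression level bears on this share. By the mean over the 6 arrays, all 6 were among the 29 members whose probe set lay above the median of all probe sets. They are 20.7% of those 29, beside 4.59% of all genes above that median. ITGA1 lay above it only through its siKDM1A arrays, being at 4.60 to 4.92 on the control arrays, whose medians were 5.09 to 5.12. The 20.7% is therefore set in part by the change itself. Over probe sets, 8 of 95 passed, all higher, beside 2.18% of all probe sets called higher and 3.73% called lower. The median log2 fold change was 0.19 over the 35 members and 0.0069 over all genes, and 28 of the 35 were positive. In 12 members, 34.3%, all 3 siKDM1A arrays lay above all 3 control arrays, beside 13.5% of all genes, and in no member did they all lie below, beside 18.1% of all genes. The 29 members that did not pass had log2 fold changes between -0.26 and 0.44. The number that rose was not stable: it was 3 without control replicate c (ITGA1, ITGA5 and LAMC1), 2 without the arrays lettered a (ITGA1 and LAMC1), and 1 (ITGA1) under the one-way analysis of variance that the study's methods name.

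**Figure D1:**
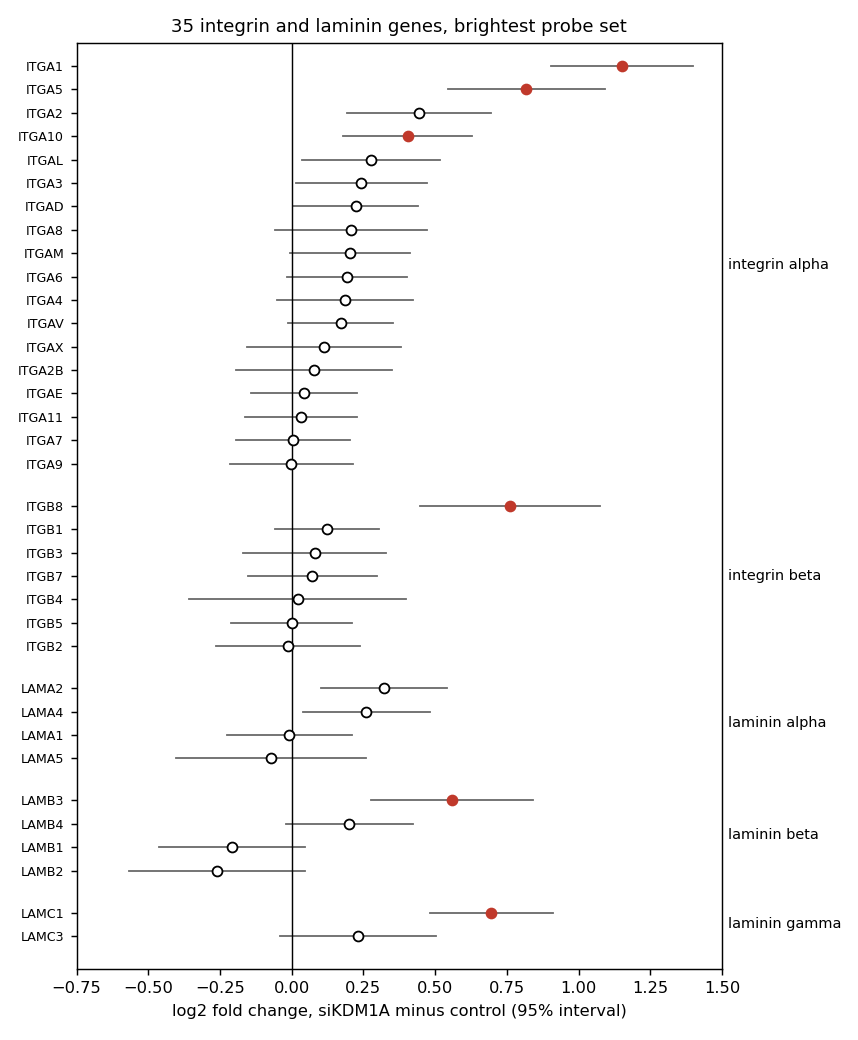
Log2 fold change (siKDM1A minus control) of 35 integrin and laminin genes by subunit class on the brightest probe set of each, with the 95% interval; filled points passed limma's test. The 6 filled points lie between 0.40 and 1.15, and the open ones between -0.26 and 0.44.

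ITGA1, ITGA2, ITGA10 and ITGA11 are the 4 alpha subunits that pair with ITGB1 to form collagen receptors. ITGA1, whose dimer favours the collagen IV of basement membranes, rose the most of the 35 genes. Its log2 values were 5.79, 5.92 and 6.04 on the siKDM1A arrays, against 4.92, 4.76 and 4.60 on the control arrays. The groups were well apart, the lowest siKDM1A array lying 0.87 above the highest control array. The fold change was 2.22 (95% interval 1.87 to 2.64, adjusted p = 0.00057), and ITGA1 passed under all 15 alternatives, with an adjusted p of up to 0.0495. In 1 of these, probe sets needed a mean log2 value of 5 or more, which ITGA1 reached only through its siKDM1A arrays. That pass is therefore set in part by the change itself. A second probe set of ITGA1 also rose, with log2 values of 3.25, 3.35 and 3.11 on the siKDM1A arrays, against 2.59, 2.71 and 2.66 on the control arrays. That is a log2 fold change of 0.59 (adjusted p = 0.0073), at a level under the lower quartile of each array. The remaining one had a log2 fold change of 0.12 and did not pass (adjusted p = 0.60), and the mean over the 3 probe sets of ITGA1 gave 0.62 in place of 1.15.

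ITGA10, known as a collagen receptor of cartilage, rose 1.32-fold (95% interval 1.13 to 1.55, adjusted p = 0.046). Its log2 values were 6.36, 6.16 and 6.06 on the siKDM1A arrays, against 5.86, 5.76 and 5.74 on the control arrays, without overlap. This call was the least stable of the 6, since it passed in 6 of 15 alternatives and did not hold without siKDM1A replicate a, without siKDM1A replicate b or without any 1 of the control arrays (adjusted p up to 0.18). ITGA2, the subunit of the collagen receptor shared by platelets and epithelial cells, fell just short on both of its probe sets. On the brighter one its log2 values were 10.90, 11.04 and 10.79 on the siKDM1A arrays, against 10.66, 10.33 and 10.42 on the control arrays, again without overlap. The log2 fold change was 0.44 (95% interval 0.19 to 0.69, adjusted p = 0.051), and on the other probe set it was 0.42 (adjusted p = 0.061). ITGA11, the collagen receptor subunit of fibroblasts, had a log2 fold change of 0.03 (95% interval -0.16 to 0.23).

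The receptors that read the arginine-glycine-aspartate (RGD) motif of fibronectin, vitronectin and latent TGF-beta were led by ITGA5 and ITGB8. ITGA5, which pairs with ITGB1 as the main fibronectin receptor, had log2 values of 7.13, 6.80 and 7.27 on the siKDM1A arrays, against 6.32, 6.23 and 6.19 on the control arrays. The siKDM1A arrays spread more widely than the control arrays and did not overlap with them. ITGA5 rose 1.76-fold (95% interval 1.46 to 2.13, adjusted p = 0.0050) on its single probe set, and passed in 13 of 15 alternatives (adjusted p = 0.059 without the arrays lettered a).

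ITGB8, which pairs with ITGAV and is known for the activation of latent TGF-beta in the developing brain, had log2 values of 10.13, 10.36 and 9.88 on the siKDM1A arrays, against 9.50, 9.43 and 9.15 on the control arrays. Every siKDM1A array was above every control array, and ITGB8 rose 1.70-fold (95% interval 1.36 to 2.11, adjusted p = 0.014). The call did not hold when control replicate c was left out (adjusted p = 0.065), nor without the arrays lettered a (adjusted p = 0.082). Of its 4 dimmer probe sets the brightest had a log2 fold change of 0.64 and did not pass (adjusted p = 0.069), and the mean over all 5 probe sets was 0.38 (adjusted p = 0.051). Of the other RGD receptor genes none passed. ITGAV, the alpha subunit shared by several of them, had a log2 fold change of 0.17 (95% interval -0.01 to 0.35), and ITGB3 and ITGB5, its partners in vitronectin receptors, had 0.08 and 0.00.

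**Figure D2:**
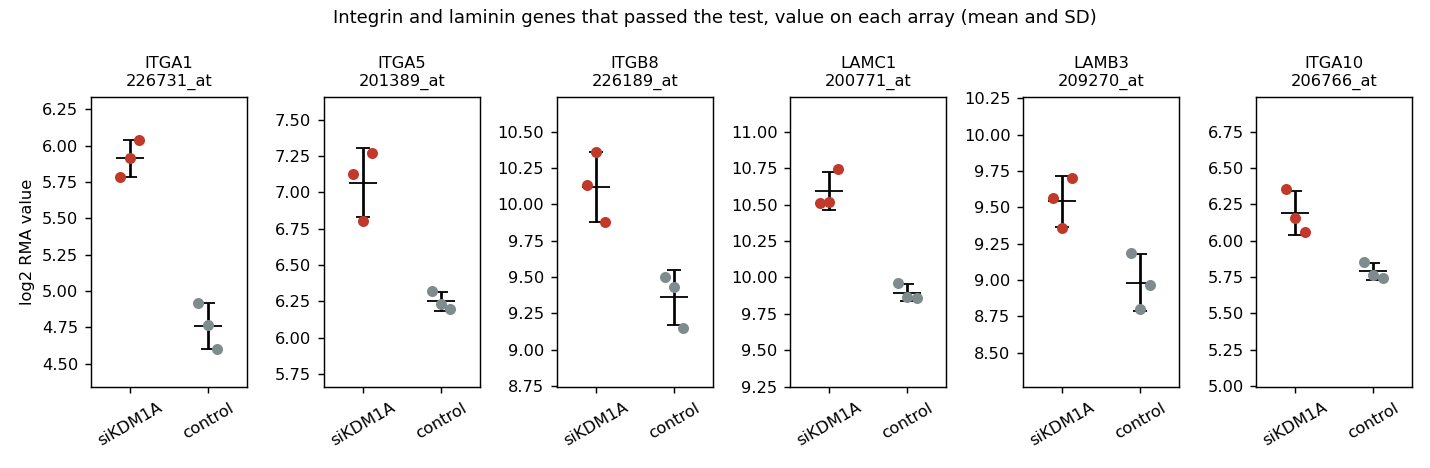
Log2 RMA value on each array for the 6 members that rose, siKDM1A left of control, with mean and SD; each panel spans 2 log2 units. In every panel the 3 siKDM1A points lie above the 3 control points.

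Of the integrins classed here as laminin-binding, those with the ITGA3, ITGA6 or ITGA7 subunit, no subunit passed on its brightest probe set. ITGA3, whose dimer with ITGB1 binds laminins of epithelial basement membranes, had a log2 fold change of 0.24 (adjusted p = 0.24). ITGA6, which pairs with ITGB1 or, in hemidesmosomes, with ITGB4, had 0.19 (adjusted p = 0.31), and ITGB4 had 0.02 (adjusted p = 0.97). ITGA7, the laminin receptor subunit of muscle, had 0.00. ITGB1 itself had log2 values of 12.55, 12.53 and 12.61 on the siKDM1A arrays, against 12.45, 12.41 and 12.46 on the control arrays, which did not overlap but differed by only 0.12 (95% interval -0.06 to 0.30, adjusted p = 0.47).

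The next 2 probe sets of ITGB1 by level, and the second of ITGA6, gave larger differences with a larger spread. ITGB1 on the dimmer of these had log2 values of 9.18, 10.08 and 9.86 on the siKDM1A arrays, against 8.45, 9.48 and 9.31 on the control arrays, a log2 fold change of 0.63 (adjusted p = 0.28). ITGB1 on the other had 10.91, 11.36 and 11.30 on the siKDM1A arrays, against 10.33, 10.98 and 10.87 on the control arrays, a log2 fold change of 0.46 (adjusted p = 0.20). ITGA6 had 8.97, 9.73 and 9.35 on the siKDM1A arrays, against 8.27, 9.15 and 8.88 on the control arrays, a log2 fold change of 0.59 (adjusted p = 0.22). In all 3 probe sets the array lettered a was the lowest of its group, in both groups. The 2 ACTB control probe sets, whose 3′ minus 5′ gap measures RNA integrity, were farthest apart on the same arrays, with gaps of 1.41, 0.72 and 0.91 on the siKDM1A arrays and 1.43, 0.86 and 1.22 on the control arrays. The part of RNA integrity in these values was not tested.

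**Figure D3:**
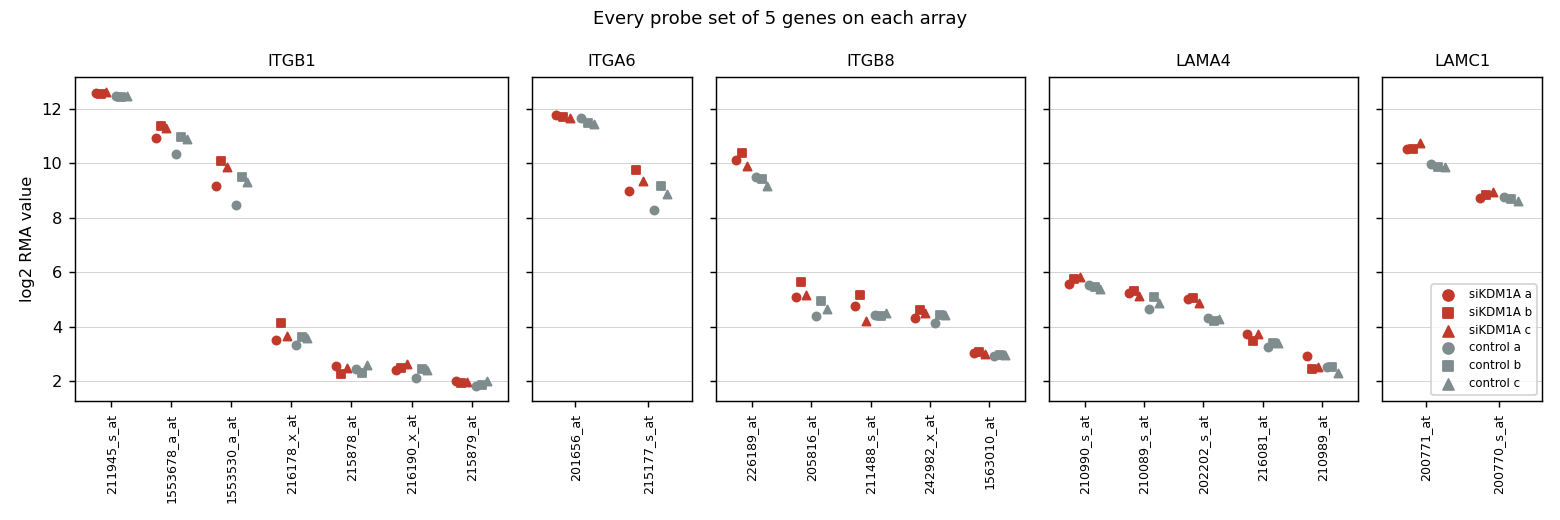
Log2 RMA value of every probe set of ITGB1, ITGA6, ITGB8, LAMA4 and LAMC1 on each array, siKDM1A (red) left of control (grey), with the replicate letter as the marker shape. The circles of letter a sit lowest in both groups on the probe sets of ITGB1 next after its brightest and on the dimmer one of ITGA6, and only 1 probe set each of ITGB8, LAMA4 and LAMC1 passed the test.

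Among the laminin chains, 1 beta and 1 gamma chain rose and no alpha chain passed on its brightest probe set. LAMC1, the gamma chain of most laminins, had log2 values of 10.51, 10.52 and 10.74 on the siKDM1A arrays, against 9.97, 9.86 and 9.86 on the control arrays, with the groups clearly apart. LAMC1 rose 1.62-fold (95% interval 1.40 to 1.88, adjusted p = 0.0034) and passed in 14 of 15 alternatives. Its second probe set did not pass, with a log2 fold change of 0.15 (adjusted p = 0.45), and the mean over both gave 0.42 (adjusted p = 0.011).

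LAMB3, a laminin beta chain of epithelial basement membranes, had log2 values of 9.57, 9.36 and 9.70 on the siKDM1A arrays, against 9.18, 8.80 and 8.96 on the control arrays. The gap between the groups was narrow, 0.17 from the highest control array to the lowest siKDM1A array. LAMB3 rose 1.47-fold (95% interval 1.21 to 1.79, adjusted p = 0.032), a call lost without siKDM1A replicate a or c, without control replicate b or c, and without the arrays lettered a (adjusted p from 0.087 to 0.13).

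LAMA4, the alpha chain of vascular and mesenchymal basement membranes, rose on 1 of its 5 probe sets, not on its brightest. There its log2 values were 5.01, 5.04 and 4.88 on the siKDM1A arrays, against 4.32, 4.20 and 4.29 on the control arrays, with no overlap and a log2 fold change of 0.70 (adjusted p = 0.0022). On the brightest probe set of LAMA4 the log2 fold change was 0.26 (adjusted p = 0.19), so LAMA4 is not among the 6. LAMA2, the alpha chain of muscle and nerve, had a log2 fold change of 0.32 (adjusted p = 0.10), LAMA1, the alpha chain of early embryonic laminin, -0.01 and LAMA5, that of most adult epithelia, -0.07. LAMB1 and LAMB2, the beta chains that assemble with LAMC1, had the lowest log2 fold changes of the 35 genes, -0.21 (95% interval -0.46 to 0.05) and -0.26 (95% interval -0.57 to 0.05), and neither passed (adjusted p = 0.37 and 0.35). LAMB4 and LAMC3 had 0.20 and 0.23 and did not pass.

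The subunits of each complex were set beside each other. Of 24 known integrin heterodimers 23 had both subunits measured, and in 3 the alpha subunit alone passed, in 1 the beta subunit alone, in none both, and in 19 neither. The pairs share subunits. All 3 in which the alpha subunit passed contain ITGB1, so their count rests on 1 probe set of that gene. The alpha minus beta difference was compared within each array, which leaves the level of a probe set out of account. For ITGA1 with ITGB1 the log2 fold change was larger in the alpha subunit by 1.03, for ITGA5 with ITGB1 by 0.69 and for ITGA10 with ITGB1 by 0.28, and in each case the siKDM1A and control arrays did not overlap. For ITGAV with ITGB8 the beta subunit changed more, with a difference of -0.59 that also left the groups apart. ITGAL and ITGAD, each with ITGB2, differed by 0.29 and 0.24 without overlap, though no subunit of these pairs passed. These 6 pairs reached p = 0.1 in a two-sided exact permutation test, the smallest p that 3 against 3 arrays allow, and 0.38 after adjustment over the 23 pairs, so none passed. The differences moved with the probe set chosen for the beta subunit. Against the next 2 probe sets of ITGB1 by level they were 0.69 and 0.52 for ITGA1, 0.35 and 0.19 for ITGA5, and -0.06 and -0.22 for ITGA10, where the direction turned. With all probe sets of a gene averaged they were 0.37 for ITGA1, 0.57 for ITGA5 and 0.16 for ITGA10, each with ITGB1, and -0.21 for ITGAV with ITGB8.

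**Figure D4:**
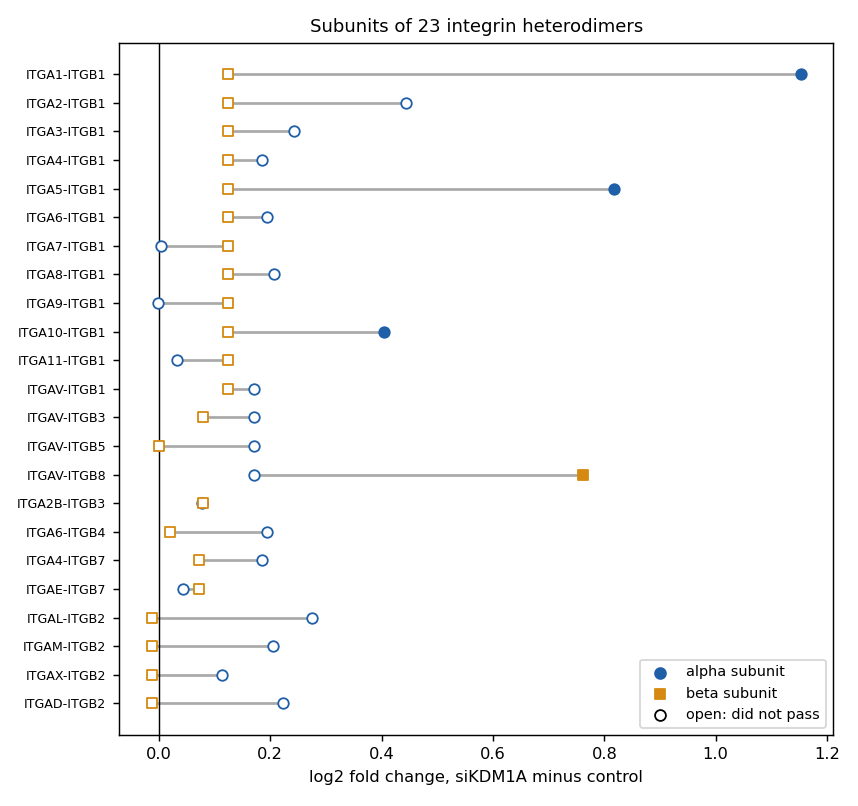
Log2 fold change (siKDM1A minus control) of the alpha subunit (circle) and the beta subunit (square) of 23 integrin heterodimers, filled where the subunit passed limma's test. The longest line joins ITGA1 (1.15) and ITGB1 (0.12), and in the pair of ITGAV and ITGB8 the beta subunit lies to the right.

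Laminin trimers were counted over 13 known combinations, of which 11 had all 3 chains measured and none contains LAMB3. In 10 of the 13 a single measured chain rose, LAMC1. No trimer could hold 2 chains that rose, since LAMC1 was the only such chain in these combinations. The 3 trimers without a chain that rose are those that carry LAMC3 in place of LAMC1, with LAMA2, LAMA4 or LAMA5 as the alpha chain. The trimers share chains, so these counts follow from 1 gene that rose.

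The 8 integrin subunits typical of leukocytes and platelets (ITGAL, ITGAM, ITGAX, ITGAD, ITGAE, ITGB2, ITGB7 and ITGA2B) held no called gene, and their log2 fold changes ranged from -0.01 to 0.28 with a median of 0.10. Levels differed widely within this group, with log2 values of 10.13 to 10.25 for ITGAE and of 4.30 to 4.68 for ITGAX. Of 5 measured leukocyte markers 1 lay above the array median on every array and none passed, and PTPRC, which encodes CD45, ranged from 3.67 to 3.97 over the 6 arrays. Their summed log2 level was 22.7 to 23.8 on the siKDM1A arrays and 23.0 to 23.1 on the control arrays. Of 4 platelet markers none passed. Of 6 epithelial markers KRT5 alone passed, and fell by 0.39 on the log2 scale (adjusted p = 0.038), a call that held only when siKDM1A replicate c was the array left out, while EPCAM stayed under the lower quartile on each array. Of 6 mesenchymal markers TWIST1 alone passed, and fell by 0.63 on the log2 scale (adjusted p = 0.022), though not without siKDM1A replicate b or any 1 of the control arrays. Of 7 neuronal markers MAP2 alone passed, and rose 2.17-fold (adjusted p = 0.00030). The summed level of the epithelial list was 47.5 to 48.4 on the siKDM1A arrays and 47.3 to 47.6 on the control arrays, and that of the mesenchymal list was 48.2 to 49.4 on the siKDM1A arrays and 48.7 to 49.3 on the control arrays. The neuronal list summed to 43.4 to 44.8 on the siKDM1A arrays, above the 42.9 to 43.1 on the control arrays. That sum includes MAP2, and the median log2 fold change of the 7 neuronal genes was 0.06. They ranged from -0.19 to 1.12, with MAP2 the highest and 4 of the 7 positive. The platelet list summed to 19.2 to 19.6 on the siKDM1A arrays and 19.3 to 19.6 on the control arrays. The part of these cell types in the results above was not tested.

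Genes that act with the integrins were counted in lists by role, which were chosen with earlier results of these data known. Over all genes, 3.45% were called higher and 5.46% lower. Of 29 measured ligands of the matrix and the cell surface, 7 rose, 1 fell and 21 did not pass, with a median log2 fold change of 0.15. SPP1, which encodes the RGD ligand osteopontin, had log2 values of 7.81, 8.10 and 7.58 on the siKDM1A arrays, against 4.78, 5.04 and 5.25 on the control arrays, and rose 6.99-fold (adjusted p = 3.9e-05). COL3A1, a fibrillar collagen chain, rose 4.36-fold, and CCN2 and CCN1, secreted matricellular proteins, rose 3.15-fold and 2.10-fold. The other ligands that rose were ICAM2, POSTN and TNC, with log2 fold changes between 0.55 and 0.86, of which TNC did not hold without siKDM1A replicate a or b or control replicate b or c. ICAM4, a red cell ligand of leukocyte integrins, fell by 0.93 on the log2 scale (adjusted p = 0.0020).

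Of 51 measured genes of the integrin adhesion complex 5 rose, 2 fell and 44 did not pass, with a median log2 fold change of 0.07. The shares over all genes were 3.45% called higher and 5.46% called lower. FERMT2, which encodes kindlin-2 and activates integrins by binding the beta subunit tail, had log2 values of 9.24, 9.39 and 9.15 on the siKDM1A arrays, against 8.12, 8.20 and 8.23 on the control arrays, and rose 2.10-fold (adjusted p = 0.00035). LPXN, a paxillin-like adaptor, rose 2.21-fold (adjusted p = 0.00079). TNS3, a tensin that links beta subunits to actin, and KANK2, a talin-binding adaptor at the rim of adhesions, fell by 0.72 and 0.62 on the log2 scale (adjusted p = 0.0043 and 0.0078). The others that rose, the kinase gene FYN and the adaptor genes FBLIM1 and DAB2, had log2 fold changes between 0.39 and 0.41. With 1 array left out the list held 2 to 4 genes that rose, 2 in all cases but that of siKDM1A replicate c, and without the arrays lettered a it held 2 that rose and 1 that fell.

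Of 19 tetraspanins and other membrane proteins that associate with integrins 3 rose and none fell, beside 3.45% and 5.46% of all genes. They were PLAUR, the urokinase receptor (3.27-fold, adjusted p = 5.0e-05), the tetraspanin TSPAN8 (2.50-fold, adjusted p = 0.0025) and the integrin-associated protein CD47 (1.63-fold, adjusted p = 0.020). TSPAN8 was under the lower quartile on each control array, and the call of CD47 was lost without siKDM1A replicate b, control replicate a or control replicate c (adjusted p up to 0.19 over all alternatives). Of 19 laminin partners and other laminin receptors 1 passed, SPARC, a collagen IV-binding matricellular protein, which rose 1.35-fold (adjusted p = 0.018), a call lost without siKDM1A replicate a or any control array. Of 5 measured hemidesmosome genes KRT5, given above, was the only one that passed.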

How the data were processed

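ONS-76 RNA was hybridised to 6 Affymetrix U133 Plus 2.0 arrays. The deposited values are log2 expression values that the authors made with RMA, with Partek also named in the submitters' processing notes; the versions are not given in the sources used here. RMA corrects background, quantile-normalises arrays and summarises probes, so a change shared by most genes is removed, and fold changes of dim probe sets can be compressed.

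Of 54675 probe sets, 62 Affymetrix controls were left out, and 41091 of the rest had 1 symbol, 1801 several and 11721 none in the platform table. Current RefSeq symbols matched for all members. The authors' values were fitted with limma 3.58.1 in R 4.3.3 (lmFit, eBayes, no covariate), and p-values were adjusted over all 54613 by Benjamini-Hochberg, with 0.05 as the threshold. Fold changes are siKDM1A over control. Groups followed the treatment labels, which name KDM5A and LSD1, and are called by KDM1A as in the study. Genes were named where any member probe set passed, with their partners; from each list of related genes up to 4 called genes with the largest change were taken, and others that passed were added after their values were seen. Members and lists were chosen with earlier results of these data known. The test was run on simulated data. Letters a, b and c were not treated as pairs, since same-letter arrays had correlations of 0.11, 0.23 and -0.13 in their deviations from the group means. Alternatives were median centring, cyclic loess, a minimum mean log2 value of 5, a robust prior with an intensity trend, the replicate letter as a block, the methods' one-way ANOVA, each array left out, other choices of probe set, and, added after the data were seen, both arrays lettered a left out and dimmer probe sets of the beta subunits. Some items are not reported here.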

Additional observations from a re-analysis of the deposited data

How the results depend on the processing

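No gene that passed the test changed direction under any alternative; some members with log2 fold changes near 0, such as ITGA7, ITGB5 and LAMA1, did change sign. Over all probe sets, 1193 were higher and 2037 lower; the counts were 275 and 401 by the methods' one-way ANOVA, 524 and 555 without the arrays lettered a, and ranged from 609 to 1103 and from 694 to 1563 when 1 array was left out. The 6 integrin and laminin genes that rose became 1 by ANOVA, 2 without the arrays lettered a, and 3 to 6 with 1 array left out, with 3 without control replicate c; under the other alternatives there were 5 to 7, and none fell under any of them. When the probe sets of each gene were averaged, the median log2 fold change of the members was 0.12 in place of 0.19, with ITGA2 and LAMA4 called and ITGB8 not. ITGA1 passed in 15 of 15 alternatives, LAMC1 in 14, ITGA5 in 13, ITGB8 in 11, LAMB3 in 9 and ITGA10 in 6. The largest adjusted p of ITGA1 over these was 0.0495. Under the minimum mean log2 value of 5, ITGA1 was kept only through its siKDM1A arrays. The number of heterodimers whose arrays did not overlap was 6 of 23. It was 7 to 11 with 1 array left out, where fewer arrays make separation easier. No share over other pairs of genes is given beside these counts or the count of signs below. With the replicate letter as a block 5 of the 6 genes passed, without ITGA10 (adjusted p = 0.051), the partner difference had 1 sign in all letters in 11 pairs, and the dimmer probe sets of ITGB1 passed (adjusted p = 0.014 and 0.036), as did that of ITGA6 (0.019); the labels do not say what arrays of 1 letter share. Lower probe sets were 63.1% of all calls, 70.0% after median centring and 54.8% after cyclic loess. The cause of these differences was not tested. Intensities over background were not used, so dim probe sets, such as the second one of ITGA1, carry an unknown share of background signal.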

Other observations

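Transcripts named after integrins or laminins without being subunits were also measured by 18 probe sets, among them antisense RNAs, the integrin-like ITGBL1 and proteins that bind integrin tails. None passed limma's test, and their log2 fold changes ranged from -0.37 (ITGB3BP, adjusted p = 0.054) to 0.27 (ITGB2-AS1, adjusted p = 0.40). ITGB8-AS1, antisense to ITGB8, had a log2 fold change of -0.26 (adjusted p = 0.12), while ITGB8 rose. LAMA4-AS1, antisense to LAMA4, had 0.18 (adjusted p = 0.32).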
